A study of Mus musculus with 3 samples.

Results

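The histone genes of the mouse were read in ChIP-seq peak lists of NF-Y and H3K4me3 from the embryonic cortex. The set held the 72 genes annotated as protein-coding in GENCODE M21 whose symbol starts with Hist1h, Hist2h, Hist3h or Hist4h or is one of H2afx, H2afz, H2afv, H3f3a and H3f3b, out of 21951 protein-coding genes in all. The 67 clustered or Hist4 genes, called replication-dependent here, comprised 6 H1, 18 H2A, 18 H2B, 12 H3 and 13 H4 genes, and the other 5 encode variant histones. The rule used gene names and no value of the peak lists, although it was set with earlier results of these data known.

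Core histones H2A, H2B, H3 and H4 form the protein spool of the nucleosome, and H1 binds the linker DNA between spools. Replication-dependent genes lie in clusters, are transcribed mainly in S phase and give mRNAs that end in a stem-loop instead of a poly(A) tail, whereas most variant genes are expressed through the cell cycle as polyadenylated mRNAs. The CCAAT box, ATTGG on the opposite strand, is the sequence that the trimeric factor NF-Y (NF-YA, NF-YB and NF-YC) binds, and it is a known element of many histone promoters. Trimethylation of histone H3 at Lys4 (H3K4me3) marks active promoters.

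Cortices of mouse embryos at E13.5 gave 3 libraries, an Input without antibody, an NF-Y-ChIP with an antibody against NF-YC and an H3K4me3-ChIP, 1 of each, with no genetic change or treatment named in the labels. Only the ChIP libraries came with a peak list, so no value has a replicate error, no test was made, and all intervals of shares are Wilson 95% intervals that reflect the number of genes alone. The 733 NF-Y-ChIP peaks had a median fold enrichment over the local background of 6.75, and the 18816 H3K4me3-ChIP peaks one of 27.5. Read depth cannot be read from these lists. The tissue was whole cortex, so dividing progenitors and postmitotic neurons are mixed, and the share of cells that carry a peak is unknown. All 8 listed genes of cortical progenitors and neurons had an H3K4me3-ChIP peak (Neurod6 the weakest, with a fold of 4.61), and the hindbrain and posterior genes Hoxb4 and Hoxc8 had none. Endothelial Pecam1 and Cdh5 and the microglia or blood genes Cx3cr1, Csf1r and Ptprc had none either, while endothelial Cldn5 (9.38) and the ventral telencephalic genes Dlx2 (47.0), Nkx2-1 (6.64) and Lhx6 (16.2) were marked. The part of other cells in the histone peaks was not tested.

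The promoters with an NF-Y-ChIP summit are shown first because the position of the CCAAT boxes, in capitals on either strand, can be read against the summit. Sequences are from GRCm38, run 5′ to 3′ on the strand of the gene and end at the base before the transcription start site (TSS), except where stated. The Hist1h2bf/Hist1h2ad line is the whole stretch between the TSSs of that divergent pair.
H2afv (minus strand, chr11:6444444-6444643): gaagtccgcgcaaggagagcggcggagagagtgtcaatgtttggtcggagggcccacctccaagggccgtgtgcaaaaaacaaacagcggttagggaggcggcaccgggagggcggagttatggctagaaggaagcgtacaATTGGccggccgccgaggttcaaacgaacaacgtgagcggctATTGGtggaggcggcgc
H2afz (plus strand, chr3:137864287-137864486): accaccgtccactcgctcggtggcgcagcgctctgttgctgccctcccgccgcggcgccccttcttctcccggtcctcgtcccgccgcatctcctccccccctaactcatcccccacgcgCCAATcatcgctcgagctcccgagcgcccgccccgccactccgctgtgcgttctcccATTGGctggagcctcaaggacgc
Hist1h1a (plus strand, chr13:23763466-23763665): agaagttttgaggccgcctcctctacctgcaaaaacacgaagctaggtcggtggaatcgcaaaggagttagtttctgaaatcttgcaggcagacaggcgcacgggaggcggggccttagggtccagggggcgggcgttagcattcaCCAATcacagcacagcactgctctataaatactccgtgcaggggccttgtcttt
Hist1h3c (minus strand, chr13:23745603-23745802): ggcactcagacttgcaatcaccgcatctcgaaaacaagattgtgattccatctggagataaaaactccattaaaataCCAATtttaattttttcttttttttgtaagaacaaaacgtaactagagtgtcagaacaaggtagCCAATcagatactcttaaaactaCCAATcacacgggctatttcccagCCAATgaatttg
Hist1h3b (plus strand, chr13:23752067-23752266): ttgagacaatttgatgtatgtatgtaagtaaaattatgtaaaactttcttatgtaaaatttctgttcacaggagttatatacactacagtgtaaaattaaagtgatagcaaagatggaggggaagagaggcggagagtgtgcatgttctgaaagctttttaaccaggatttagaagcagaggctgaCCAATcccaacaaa
Hist1h2bm (plus strand, chr13:21721844-21722043): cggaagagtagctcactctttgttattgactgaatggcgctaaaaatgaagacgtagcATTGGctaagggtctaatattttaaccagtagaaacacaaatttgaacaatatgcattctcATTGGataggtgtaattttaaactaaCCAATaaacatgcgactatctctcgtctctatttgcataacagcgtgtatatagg
Hist1h2bf/Hist1h2ad, between the TSSs (plus strand, chr13:23574197-23574380): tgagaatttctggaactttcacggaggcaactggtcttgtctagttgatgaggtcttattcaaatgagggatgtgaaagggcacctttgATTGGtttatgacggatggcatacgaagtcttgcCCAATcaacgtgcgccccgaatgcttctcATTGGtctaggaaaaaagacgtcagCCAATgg
For H3f3b and Hist1h2be the summit lay in an annotated UTR, and only the 25 bases around the CCAAT box nearest the summit are given.
H3f3b, box 1 bp from the summit (minus strand, chr11:116024680-116024704): attgtaacagCCAATcagtggcctg
Hist1h2be, upstream of the first exon, box 9 bp from the summit (minus strand, chr13:23621262-23621286): gtacgtcccgATTGGtgaaagcgaa
Hist1h2be had another NF-Y-ChIP peak next to its coding exon, and the bases before that exon, which are intronic, are given.
Hist1h2be, before the exon with the start codon (minus strand, chr13:23585971-23586170): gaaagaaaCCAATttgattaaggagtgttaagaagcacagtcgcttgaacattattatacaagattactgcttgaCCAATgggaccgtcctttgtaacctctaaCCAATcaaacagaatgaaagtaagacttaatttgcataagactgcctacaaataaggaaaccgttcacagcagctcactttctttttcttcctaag
A further 3 stretches with CCAAT boxes and no NF-Y-ChIP summit are given for comparison. They are the promoter of H2afx and the stretches between an H2A and an H2B gene. In the latter, capitals also mark the octamer ATTTGCAT or its complement ATGCAAAT. The octamer is left in small letters in the sequences above. There it also occurs in Hist1h2bm and before the coding exon of Hist1h2be.
H2afx (plus strand, chr9:44334494-44334693): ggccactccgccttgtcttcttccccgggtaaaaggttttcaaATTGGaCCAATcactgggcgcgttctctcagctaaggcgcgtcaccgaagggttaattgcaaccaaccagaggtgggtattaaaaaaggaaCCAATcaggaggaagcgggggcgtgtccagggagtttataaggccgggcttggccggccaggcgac
Hist2h2ac/Hist2h2be, between the TSSs (plus strand, chr3:96220881-96221118): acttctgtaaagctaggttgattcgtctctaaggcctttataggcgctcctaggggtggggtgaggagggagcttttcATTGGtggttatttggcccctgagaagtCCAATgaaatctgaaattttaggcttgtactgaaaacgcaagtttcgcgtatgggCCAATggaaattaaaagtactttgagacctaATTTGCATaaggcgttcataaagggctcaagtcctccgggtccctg
Hist1h2ac/Hist1h2bc, between the TSSs (plus strand, chr13:23683949-23684198): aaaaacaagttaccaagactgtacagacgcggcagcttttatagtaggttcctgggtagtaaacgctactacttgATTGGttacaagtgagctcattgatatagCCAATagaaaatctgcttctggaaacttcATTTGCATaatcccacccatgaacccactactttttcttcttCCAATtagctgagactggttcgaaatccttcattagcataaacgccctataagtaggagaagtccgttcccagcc

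NF-Y-ChIP summits lay within 1000 bp of a TSS of 10 of the 72 histone genes (13.9%, interval 7.72 to 23.7), compared with 695 of 21951 protein-coding genes (3.17%, interval 2.94 to 3.41). Variant genes made up 3 of these 10 although they are 5 of the 72 members. Among the replication-dependent genes, 7 of 67 had a summit (10.4%, interval 5.15 to 20%). By family these were 3 of 18 H2B, 2 of 12 H3, 1 of 18 H2A, 1 of 6 H1 and 0 of 13 H4 genes, and the upper bound of the H4 share was 22.8%. All 7 were in the Hist1 cluster, with no summit at the 10 Hist2 genes, the 2 Hist3 genes or Hist4h4. The family shares rest on few genes, and their intervals overlap.

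Among the variants, H2afv, which encodes an H2A.Z protein, had the strongest NF-Y-ChIP peak of the set. Its fold enrichment was 22.2, place 13 of the 733 peaks, with a summit 39 bp upstream of the TSS (peak chr11:6444321-6444601). H2afz, which encodes the other H2A.Z protein, had a peak of 7.10-fold, place 324, with the summit 60 bp upstream (chr3:137864326-137864545). In both promoters the summit fell between a pair of CCAAT boxes, at -57 and -15 in H2afv and at -78 and -21 in H2afz, each given as the distance of the middle base from the TSS.

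H3f3b encodes the replacement form of H3, and its NF-Y-ChIP peak was the weakest of the set, at 5.34-fold and place 541 (chr11:116024594-116024764). The summit was 179 bp upstream of an internal TSS of the gene and inside an exon of its longest transcript, with 3 CCAAT boxes within 50 bp. It was 1 of the 2 peaks in the histone loci that overlapped no H3K4me3-ChIP peak, and the nearest one, of 77.2-fold, lay 61 bp away. H3f3a, which encodes the same protein, and H2afx, whose product is phosphorylated at DNA breaks, had no NF-Y-ChIP summit within 1000 bp. The H2afx promoter nevertheless held 3 CCAAT boxes, at -155, -149 and -64, and H3f3a held 1 upstream of an internal TSS.

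In the Hist1 cluster, Hist1h2bm had a peak of 8.34-fold with its summit 117 bp upstream of the TSS (chr13:21721835-21722067), between boxes at -140 and -79. It was the only member of the first Hist1 block, of 23 genes, with a summit inside the limit. The other 6 were among the 31 genes of the second block, further along chromosome 13.

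The divergent genes Hist1h2bf and Hist1h2ad shared a peak of 7.75-fold (chr13:23574251-23574455), whose summit was 164 bp upstream of Hist1h2bf and 21 bp upstream of Hist1h2ad. Hist1h3c had a peak of the same fold (chr13:23745512-23745737) with the summit at -57, on the middle base of a CCAAT box. Hist1h1a, a linker histone gene, had another peak of 7.75-fold (chr13:23763501-23763755), 69 bp upstream and 17 bp from its only box. Values of this list are coarse, and 7 peaks of the 733 had this fold. Hist1h3b had a peak of 6.48-fold (chr13:23752137-23752382) with the summit 19 bp upstream and a box at -12.

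Hist1h2be was assigned its peak through a distant first exon. That peak, of 9.19-fold, lay 159 bp upstream of the annotated TSS (chr13:23621163-23621375), but this TSS is 35168 bp from the start codon and inside Hist1h1e, of which the peak occupies the 3′ UTR. A second peak, of 8.71-fold (chr13:23585963-23586191), had its summit 130 bp upstream of the Hist1h2be start codon and 4488 bp from the nearest TSS of any member, that of Hist1h4d. The 3 boxes of the stretch before the coding exon are those printed above. Measured from the start codon, therefore, Hist1h2be also counted among the genes with a summit, and the number of 10 did not change. Counting start codons as well gave 701 protein-coding genes in all (3.19%).

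Members just outside the limit were Hist1h2bb, with the nearest summit 1075 bp upstream, Hist1h2ab (1122 bp downstream) and Hist1h1b (1162 bp downstream). Next came Hist1h3a, Hist1h1e and Hist1h3d at 1211, 1275 and 1403 bp. All but 1 of these summits are those of the neighbouring genes named above. The exception, at Hist1h1b, was a peak of 9.69-fold (chr13:21779363-21779605) downstream of the gene with 3 CCAAT boxes within 50 bp of its summit, and it overlapped an H3K4me3-ChIP peak of 24.6-fold.

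Counting these 2 more distant peaks, 11 NF-Y-ChIP peaks lay in the histone loci, 8 of them in Hist1. Their widths were 171 to 281 bp and their folds 5.34 to 22.2, with a median of 7.75. All 11 had a CCAAT box within 50 bp of the summit, and 10 had 2 or more. Over all 733 peaks, 646 (88.1%) had a box in that window and 343 (46.8%) had 2 or more. An H3K4me3-ChIP peak was overlapped by 9 of the 11, and by 645 of the 733 (88.0%).

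CCAAT boxes were far more common upstream of histone genes than the summits. The letters CCAAT or ATTGG occurred in the 200 bp before the principal TSS of 57 of 72 members (79.2%, interval 68.4 to 86.9), and of 6923 of 21951 protein-coding genes (31.5%). At least 2 boxes were present at 48 members (66.7%) and at 8.99% of protein-coding genes. All 18 H2A and all 18 H2B genes had a box, with up to 5 in Hist1h2ag and Hist1h2bj. Of 13 H4 genes, 4 had one (Hist1h4a, Hist1h4c, Hist1h4d and Hist2h4). This share, 30.8% (interval 12.7 to 57.6), was near the 31.5% of all protein-coding genes. Among the others, 9 of 12 H3 and 5 of 6 H1 genes had a box. The boxes of H1 genes sat at a median of -53, nearer to the TSS than those of H2A (-109) and H2B (-140). A total of 13 members, 10 of them in the first Hist1 block, are annotated from the start codon on, so that any 5′ UTR of theirs lies inside the window.

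**Figure D1:**
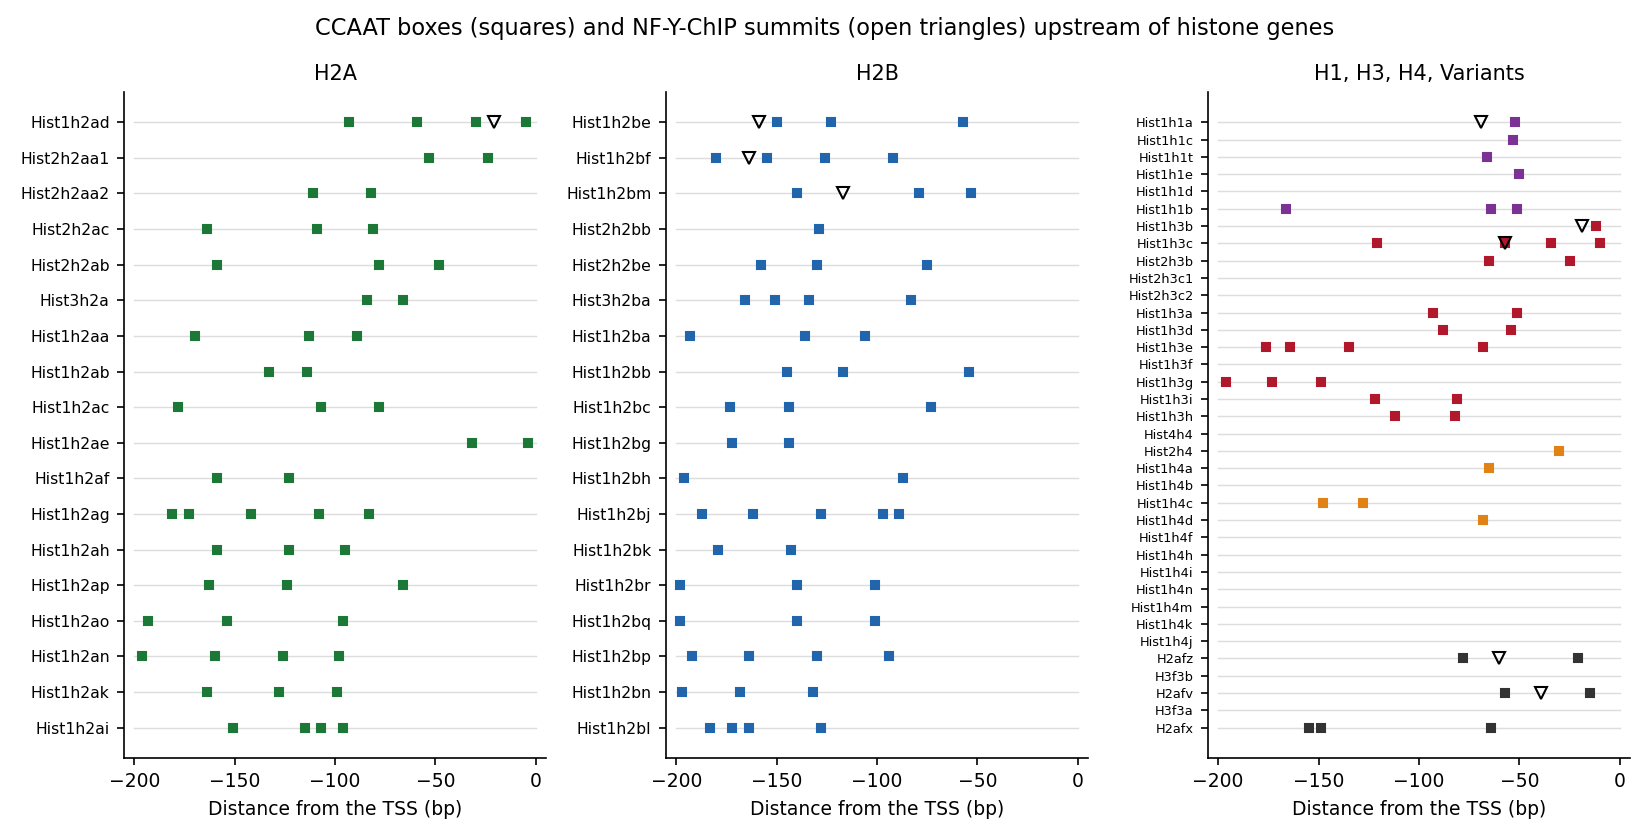
Distance of each CCAAT box (squares, middle base, either strand) from the principal TSS in bp, with 1 line per gene and colours for the families; open triangles are NF-Y-ChIP summits within 1000 bp of a TSS. Every H2A and H2B gene carries boxes, while 9 of 13 H4 lines are empty. The H4 share with a box (30.8%) is near that of all protein-coding genes (31.5%). The summit of H3f3b, which belongs to an internal TSS, is not drawn.

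The number of boxes did not order the histone genes by NF-Y-ChIP as it ordered protein-coding genes. Over all protein-coding genes the share with a summit was 1.01% with no box, 3.60% with 1, 13.3% with 2 and 33.5% with 3 or more (171 of 510, interval 29.6 to 37.7). Among histone genes, 1 of 15 without a box had a summit (H3f3b, through its internal TSS), as did 2 of 9 with 1 box (22.2%) and 2 of 17 with 2 boxes (11.8%). With 3 or more boxes it was 5 of 31 (16.1%, interval 7.09 to 32.6). The intervals of the last group overlap, and the difference was not tested. Many of the 31 genes are in divergent pairs, whose boxes lie between the genes and count for both. The 5 genes with a summit include Hist1h2bf and Hist1h2ad, which share a peak. The interval treats such genes as separate. Of these 31 histone genes, 25 had an H3K4me3-ChIP peak, and 5 of those 25 (20%) had the summit, compared with 39.3% of all such protein-coding genes.

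**Figure D2:**
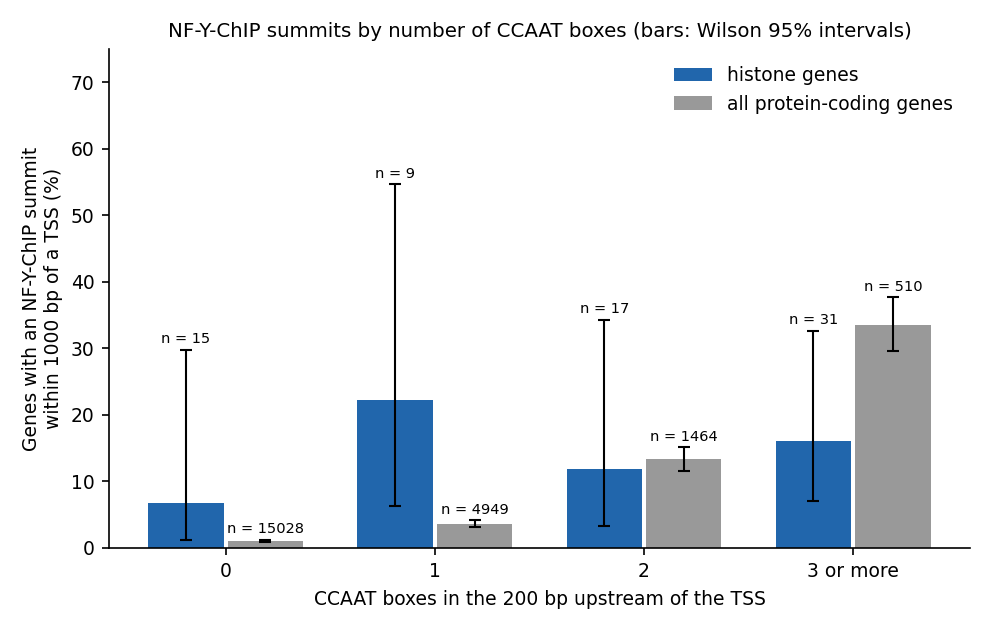
Percentage of genes with an NF-Y-ChIP summit within 1000 bp of a TSS by the number of CCAAT boxes in the 200 bp upstream, for histone genes (blue) and all protein-coding genes (grey), with Wilson 95% intervals. The grey bars climb from 1.01% to 33.5%, and the blue bars lie between 6.67% and 22.2% with wide intervals.

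Other known histone promoter elements were distributed by family. TATAAA on the gene strand, the usual TATA box, occurred in the 100 bp upstream of 21 members (29.2%) and of 4.42% of protein-coding genes, and it was most frequent in H2A (9 of 18) and H1 (3 of 6). ATTTGCAT on either strand, the octamer bound by POU factors such as Oct-1, occurred in the 200 bp upstream of 8 of 18 H2B and 6 of 18 H2A genes and in no other family, against 1.22% of protein-coding genes. AAACACA on either strand, the H1 box, was found at 8 members (11.1%) and at 4.31% of protein-coding genes. These were 4 of 6 H1 genes, 2 H2B genes (Hist1h2bm and Hist1h2ba), 1 H2A gene (Hist1h2ab) and 1 H3 gene (Hist1h3a). Hist1h1a, the H1 gene with the NF-Y-ChIP summit, had TATAAA but not AAACACA in these windows. A match in these windows is a description of letters and not a binding site.

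Members were arranged in 13 head-to-head pairs, 12 of an H2A with an H2B gene and 1 of Hist1h2bh with Hist1h3f. Their TSSs were 176 to 660 bp apart, with a median of 279 bp. All 13 stretches held at least 2 CCAAT boxes, with a median of 3 and up to 5, and 5 of them held the octamer. Of these 13, only the stretch between Hist1h2bf and Hist1h2ad had an NF-Y-ChIP summit. The summit of Hist1h2bm was also 119 bp upstream of Hist1h2aj, which is annotated as a pseudogene and was not considered for the pairs. An H3K4me3-ChIP peak overlapped 9 of the 13, and the 4 without one were Hist1h2bq/Hist1h2ao, Hist1h2ap/Hist1h2br, Hist1h2ag/Hist1h2bj and Hist1h2ba/Hist1h2aa. The printed stretches of Hist2h2ac/Hist2h2be and Hist1h2ac/Hist1h2bc each carried 3 boxes and an octamer, with H3K4me3-ChIP folds of 9.61 and 8.48 and no NF-Y-ChIP summit.

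H3K4me3-ChIP peaks lay within 1000 bp of a TSS of 62 of the 72 histone genes (86.1%, interval 76.3 to 92.3) and of 13767 of 21951 protein-coding genes (62.7%). All 12 H3 genes and all 5 variant genes were marked, as were 15 of 18 H2A, 15 of 18 H2B, 11 of 13 H4 and 4 of 6 H1 genes. Where marked, however, histone genes had low folds. The median of the highest fold per gene was 13.1 for members (n = 62) and 39.9 for all marked protein-coding genes, whose quartiles were 25.7 and 52.7.

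The low values were those of the clustered genes. The 5 variant genes had folds of 57.3 (H2afv), 59.2 (H2afz), 64.7 (H3f3a), 66.4 (H2afx) and 77.2 (H3f3b), the 5 highest of the set and above those of 81.7% to 98.4% of marked protein-coding genes. Hist4h4, which stands alone on chromosome 6, followed with 49.8, and Hist3h2a on chromosome 11 with 42.2. All other marked replication-dependent genes lay between 5.52 and 24.6, the latter at Hist1h1b. The lowest were Hist2h2aa2 with 5.52, Hist1h4b with 5.90 and Hist1h3e with 7.44, followed at 8.21 by Hist1h4f and by Hist1h2bf and Hist1h2ad, which share their peak. Family medians were 21.1 for H1, 17.4 for H4, 13.1 for H2B, 12.4 for H2A and 11.3 for H3. These medians are not independent, because 29 of the 62 genes had their highest peak in common with another member.

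**Figure D3:**
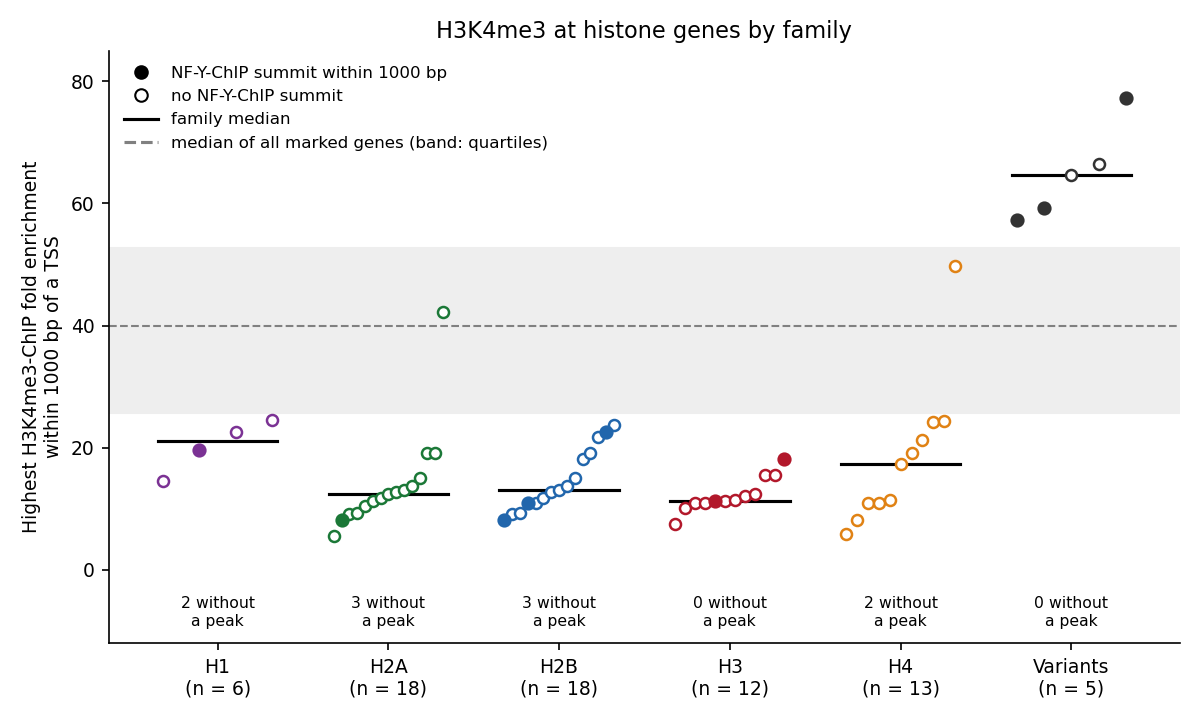
Highest H3K4me3-ChIP fold enrichment within 1000 bp of a TSS for each marked histone gene by family (points, filled where an NF-Y-ChIP summit is present), with family medians (bars) and the median and quartiles of all marked protein-coding genes (dashed line and band). The 5 variant genes lie above the band, at 57.3 to 77.2, while Hist4h4 (49.8) and Hist3h2a (42.2) are the only replication-dependent genes that reach it.

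The 10 members without an H3K4me3-ChIP peak fell into separate kinds. Hist1h1t, Hist1h2ba and Hist1h2aa encode the testis forms of H1, H2B and H2A, and 87.0% to 100.0% of the 50-base words within 500 bp of their TSSs occur once in the genome. Hist1h1d was unmarked only at its annotated TSS, which is 1828 bp before the start codon. At the start codon it had a peak of 26.3-fold (chr13:23554944-23555341) with the summit 89 bp into the coding sequence. Counting start codons as well gave 63 marked members (87.5%), against 62.9% of all protein-coding genes.

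The other 6 unmarked genes, Hist1h2bq, Hist1h2ao, Hist1h4m, Hist1h4n, Hist1h2ap and Hist1h2br, form mirrored trios in the first Hist1 block. The 1000 bp around the TSS of Hist1h2bq and of Hist1h2br were identical, the corresponding 970 bp of Hist1h2ao and Hist1h2ap were identical, and those of Hist1h4m and Hist1h4n were 99.7% identical. No 50-base word at the H2A and H2B genes of the trios occurred once in the genome, and at Hist1h4m and Hist1h4n 9.19% and 4.60% did. At these 6 genes the absence of peaks of either kind cannot be told apart from reads that could not be placed.

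The peaks of the clusters were narrow and lay close together. The clusters with more than 1 gene held 102 H3K4me3-ChIP peaks as called, or 51 when peaks closer than 1 kb were merged, and the counts that follow are of peaks as called. Of the 102, 84 lay within 1000 bp of a member TSS. The latter were 430 bp wide at the median with a fold of 10.1, while peaks of the whole list were 1098 bp wide. By cluster, 24 peaks served the first Hist1 block, 45 the second, 11 Hist2 and 4 Hist3. Of the 84, 46 lay at 1 member, 33 at 2 and 5 at 3 or more. Conversely 44 of the 62 marked members (71.0%) had 2 or more peaks within 1000 bp, against 14.8% of marked protein-coding genes. Wide peaks also occurred, with 2446 bp at Hist1h4h, 2521 bp near Hist3h2a, 2155 bp over Hist1h1e and 2094 bp over Hist1h1b. In the first Hist1 block, the 13 peaks away from histone genes had a median fold of 14.0 and reached 35.8, while the 24 at histone genes had a median of 10.4.

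**Figure D4:**
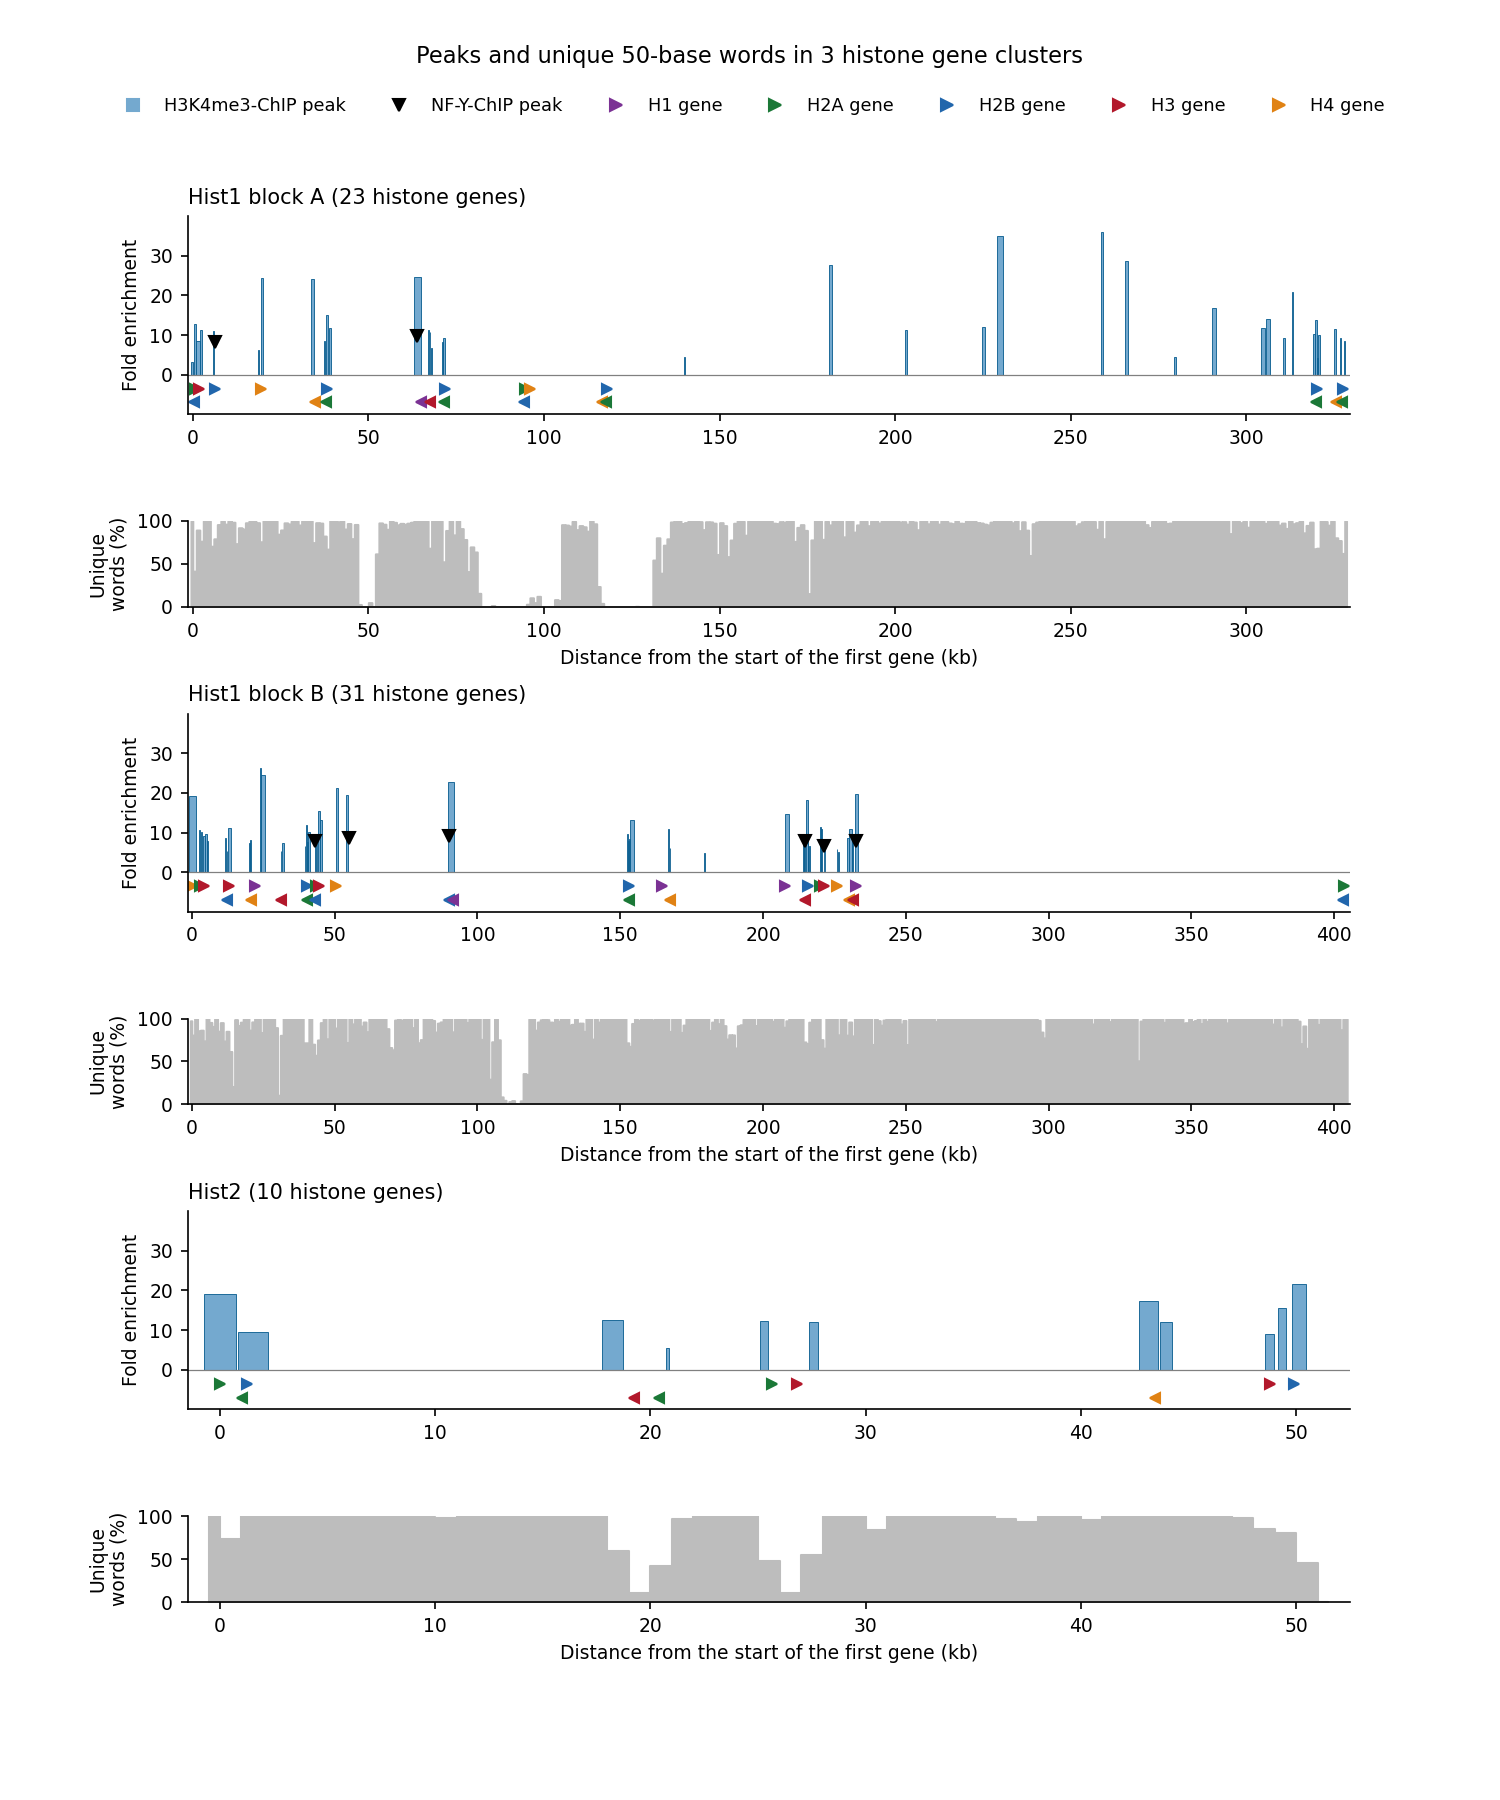
Fold enrichment of H3K4me3-ChIP peaks (blue bars, drawn to width) and NF-Y-ChIP peaks (black triangles) along the Hist1 blocks and Hist2, in kb from the start of the first gene, with histone genes as arrowheads pointing in the direction of transcription and coloured by family; grey bars give the percentage of 50-base words in each 1 kb bin that occur once in the genome. The 6 genes of the mirrored trios stand over bins near 0 and have no peak, and the 8 NF-Y-ChIP peaks have folds of 6.48 to 9.69.

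Around the TSSs, sequence was less unique in the set than in a sample of protein-coding genes. The median share of unique 50-base words within 500 bp of the TSS was 73.0% for the 72 members and 100.0% for a sample of 549 protein-coding genes. For members the share was lower over the 500 bp downstream, with a median of 50.1%, than upstream, with 100.0%. Marked members had a median of 73.5% and the 10 unmarked members one of 6.89%. Across the 72 genes the share correlated with the percentage of bases within 500 bp of the TSS in H3K4me3-ChIP peaks (Spearman's rho 0.44), and across the 62 marked genes with the highest fold (0.58). These correlations describe genes that share peaks and sequence.

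**Figure D5:**
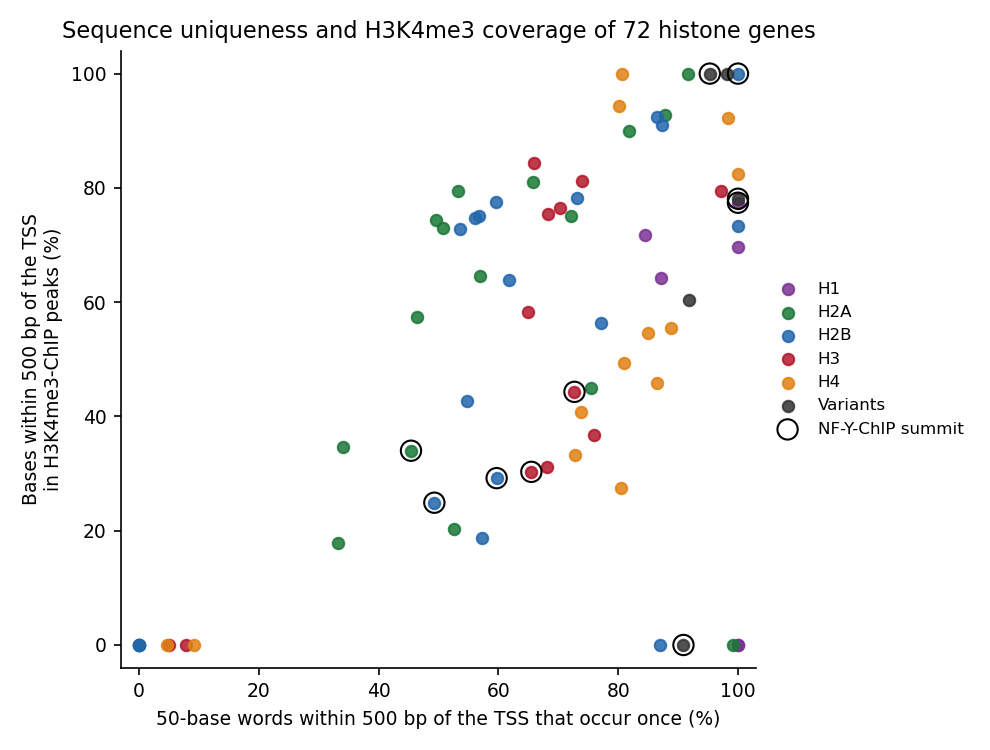
Percentage of bases within 500 bp of the TSS inside H3K4me3-ChIP peaks against the percentage of 50-base words there that occur once, for 72 histone genes coloured by family, with NF-Y-ChIP summits ringed. Coverage is 0% at the left edge, where fewer than 10% of words are unique, and the points at 0% on the right are the testis genes, Hist1h1d and H3f3b, whose peak lies at an internal TSS.

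Unique shares were also read beside the NF-Y-ChIP summits. Whether unplaced reads account for missing summits was not tested. The 9 members with a CCAAT box and a summit had a median unique share of 72.7%, and the 48 with a box and no summit one of 69.3%. In the 500 bp upstream alone these medians were 100.0% and 97.3%, and in the 500 bp downstream 58.5% and 45.6%. H2afx, with 3 boxes, had 91.8% unique words, and Hist2h2bb, with 1 box and an H3K4me3-ChIP peak of 21.7-fold, had 100.0%. At the other end, Hist2h3c1 and Hist2h3c2 had only 5.0% and 7.89% unique words and were marked through peaks of 12.1- and 12.5-fold that lay 500 bp or more from the TSS.

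Genes that serve histone supply outside the set were read for comparison. Of 13 genes of histone gene transcription and mRNA processing, all had an H3K4me3-ChIP peak, with a median fold of 44.3. Slbp, which encodes the protein that binds the stem-loop of histone mRNAs, was the only one with an NF-Y-ChIP summit, of 9.73-fold and 98 bp upstream of its TSS. Among 16 histone chaperone genes, all marked with a median of 48.8, 3 had a summit, namely Chaf1a of chromatin assembly factor 1 (9.25-fold) and Ubn1 (8.34) and Cabin1 (3.89) of the HIRA pathway. None of the 7 other histone genes found in the annotation, such as H1f0 and Cenpa, had an NF-Y-ChIP summit, and 6 of them had an H3K4me3-ChIP peak. Over all protein-coding genes, 3.17% had a summit and 62.7% an H3K4me3-ChIP peak, and these short lists were not tested against those shares.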

How the data were processed

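Chromatin of mouse cortices at E13.5 was sequenced by the authors in paired reads of 50 bases each (Input, NF-Y-ChIP, H3K4me3-ChIP, 1 library each), trimmed with Trimmomatic, aligned to GRCm38 (mm10) with Bowtie2 2.2.8 and called with MACS2 2.1.2, at p below 0.001 for NF-Y-ChIP and q below 0.05 for H3K4me3-ChIP. The tool versions are from the submitters' processing notes. The study used the Input as the negative control of the ChIP. Whether MACS2 was given it, and how reads with several placements were treated, are not given in the sources used here. Both lists are tagged uq by name, which no source explains. If it stands for uniquely placed reads, members with repeated sequence could receive few or no reads.

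The deposited lists give, per peak, a fold enrichment at the summit, which is a ratio over the local background, −log10 p-values and q-values, a display score and the offset of the summit from the start. Fold values, q-values and positions were used for the results, and the score only to assign the lists. The files name no antibody. Each was assigned by its threshold, because the score follows the p-value in 1 list and the q-value in the other. The NF-Y-ChIP list also has the number of peaks that the study reports, 733. The H3K4me3-ChIP list, with 18816 peaks, has fewer than the regions that the study reports.

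Genes, TSSs and the principal transcript (APPRIS) were from GENCODE M21. An NF-Y-ChIP peak counted when its summit, and an H3K4me3-ChIP peak when its nearest edge, was within 1000 bp of any TSS. Motifs were searched on GRCm38 in the 200 bp (TATAAA: 100 bp) upstream of the principal TSS. Words of 50 bases were counted over the genome by exact match on both strands. A read pair spans more than 1 word, so this understates what pairs can place. Clusters are runs of members with gaps under 500 kb. Scripts (Python 3.11.15, NumPy 2.4.6, pandas 2.3.3, SciPy 1.17.1, matplotlib 3.10.9) were tested on simulated data.

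With 1 library per antibody there was no test. The genes named were members with an NF-Y-ChIP summit, the variants, members without an H3K4me3-ChIP peak, the 5 highest and the 5 lowest folds, members nearest the distance limit and the listed genes; others were named after their values were seen. Of the listed marker genes, 1 is not reported here. The members and lists were chosen with earlier results of these data known.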

Additional observations from a re-analysis of the deposited data

How the results depend on the processing

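No paired analysis was possible because each antibody had 1 library and no test was made. The number of histone genes with an NF-Y-ChIP summit, 10, rose to 16 at a limit of 2000 bp and to 17 with a peak inside the gene or up to 5 kb upstream, where neighbours in the clusters share peaks. The number with an H3K4me3-ChIP peak, 62, fell to 7 when only the stronger 50% of all peaks were kept. The shares of all protein-coding genes at these settings are not given here, so these changes cannot be called particular to histone genes. The median H3K4me3-ChIP fold, 13.1, was 11.2 for the peak nearest the TSS and 10.5 with each peak counted once. The 102 H3K4me3-ChIP peaks of the clusters became 51 when peaks closer than 1 kb were merged. The median unique share of 73.0% was 80.2% over 200 bp to each side, inside the order-statistic 95% interval of the median over genes (65.5 to 80.7), and the fold with gene 5′ ends only stayed inside its own (11.4 to 17.4). The number of members with a CCAAT box, 57, was 44 in the 100 bp upstream and 38 with a longer consensus around the box. With the TSS required inside the H3K4me3-ChIP peak, 50 members were marked. These and the other alternatives tried left their counts within 1.5 times the reported value. Counting start codons or any TSS was added after the data were seen. Without read counts or replicates, counting error could not be given for any fold.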
